A study of Mus musculus with 16 samples.

Results

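The 10 genes described here are canonical targets of p53, the DNA-binding tumour suppressor encoded by Trp53 in the mouse. They were chosen by symbol, as well-known targets but with earlier results of these data known, and are described by role. Cdkn1a, Zmat3 and Gdf15 belong to arrest and growth control, Bbc3, Pmaip1, Bax, Phlda3 and Trp53inp1 to apoptosis, and Mdm2 and Ccng1 to feedback on p53. The array named 44951 genes in all, of which 29236 had a probe that could be tested, and 9 of the 10 p53 targets were among them. The symbol stood in the gene name column of the arrays for only 2 probes, 1 of Cdkn1a and 1 of Mdm2. With the transcript accession of each probe matched to RefSeq gene symbols, all 10 genes were found, with 12 probes between them.

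The samples were 16 cultures of CGR8-Myh6-GFP cells, a mouse embryonic stem cell line in which green fluorescent protein is driven by the cardiomyocyte promoter of Myh6. The cells were left to differentiate in multiwell plates in serum-containing medium and received DMSO (the vehicle), the hawthorn (Crataegus) extract WS1442 at 0.25 mg/ml, or its subfraction MeOH eluate at 0.1 mg/ml, from day 4 for 6 h or 24 h. Each time point had 2 DMSO cultures, 3 WS1442 cultures and 3 MeOH eluate cultures, and each culture was hybridised to its own one-colour array. All cultures came from 1 reporter line, the DMSO cultures of a time point served as the control of both treatments, and the 2 time points lay on different slides, so levels were compared only within a time point.

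In these arrays 55.1% to 63.0% of the gene spots were well above background. The RNA integrity number was 8.6 for WS1442 replicate 2 at 24 h and 9.6 or higher for the other cultures. Cy3 incorporation at 24 h was 25.8 to 26.1 pmol per µg cRNA in DMSO cultures and 27.1 to 32.8 in treated cultures, and the part of this difference in the results at 24 h was not tested. All 8 pluripotency markers and all 7 mesoderm markers on the list were detected in every group, whereas Myh6 itself was not detected in any group. The summed log2 signal of the mesoderm markers at 6 h was 11.94 to 11.95 in DMSO, 11.47 to 11.62 in WS1442 and 10.97 to 11.05 in MeOH eluate cultures. Of the 7 markers, Eomes and Mixl1 fell with WS1442 and T, Eomes and Mixl1 with MeOH eluate at 6 h. There 1.45% and 8.39% of all genes fell, and the median log2 fold change over the list was -0.07 and 0.05. The cardiac sum at 6 h was 9.89 to 9.98 in DMSO, 9.97 to 10.16 in WS1442 and 10.13 to 10.33 in MeOH eluate cultures, and at 24 h it was 10.92 to 11.05 in DMSO, 10.37 to 10.54 in WS1442 and 9.69 to 9.94. Of the 8 cardiac markers tested, Myl7 rose with WS1442 and Isl1 and Myl7 with MeOH eluate at 6 h. There 4.14% and 8.7% of all genes rose, and the median log2 fold change over the cardiac markers was -0.01 and -0.06. At 24 h 4 of the 8 fell with WS1442 while Mef2c rose, where 11.9% of all genes fell and 12.9% rose. With MeOH eluate at 24 h 5 fell, where 8.6% of all genes did. The neuroectoderm sum at 24 h was 11.33 to 11.35 in DMSO, 12.02 to 12.20 in WS1442 and 11.73 to 12.03 in MeOH eluate cultures. Of its 3 markers tested, 3 rose with WS1442 and 2 with MeOH eluate, where 12.9% and 9.64% of all genes rose. Of the 8 pluripotency markers, 1 fell with WS1442 and 3 with MeOH eluate at 6 h, 3 and 1 fell at 24 h, and 0 rose. Of the 4 endoderm markers tested, 1 and 3 fell at 6 h and 1 and 2 at 24 h, while Afp rose with WS1442 at 24 h. The shares of all genes that fell were 1.45% and 8.39% at 6 h and 11.9% and 8.6% at 24 h. These arrays measured whole cultures, in which fewer cells of a type and less RNA per cell cannot be told apart, and the part of such shifts in the results below was not tested.

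p53 is held at a low level in unstressed cells because the ubiquitin ligase Mdm2 binds it and sends it to the proteasome. When p53 is stabilised, for example after DNA damage, it binds paired decameric elements near its targets and raises their transcription, including that of Mdm2, which closes a negative feedback loop. Targets such as Cdkn1a halt the cell cycle, whereas targets such as Bbc3, Pmaip1 and Bax act at mitochondria to start apoptosis. Embryonic stem cells contain much p53 protein and respond to its activation largely by differentiation or cell death. The amount of Trp53 mRNA is not what usually changes in this response, since p53 is controlled mainly through its stability.

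The RefSeq promoter set used here held 11 start sites for 7 of the 10 genes (GRCm38.p6; 250 bases before and 50 after each start). The p53 half-site consensus, a palindrome of 10 bases, occurred without mismatch in 4 of these 11 windows, those of Cdkn1a, Bax, Mdm2 and Ccng1, against 8.36% of all 32851 promoter windows. A full site, taken as 2 such elements 0 to 13 bases apart with at most 2 mismatches in total, occurred in 2 of the windows, those of Cdkn1a and Bax, against 2.12% of all windows. The palindrome was read on one strand, which covers both. The 250 bases before the start are shown for these 4 genes because they are the ones in which the motif could be placed beside a measured change, with elements of the motif in capitals. They lie at chr17:29090729-29090978 (plus strand, the first of 2 Cdkn1a starts), chr7:45466899-45467148 (minus strand), chr10:117710759-117711008 (minus strand) and chr11:40755287-40755536 (minus strand).
Cdkn1a: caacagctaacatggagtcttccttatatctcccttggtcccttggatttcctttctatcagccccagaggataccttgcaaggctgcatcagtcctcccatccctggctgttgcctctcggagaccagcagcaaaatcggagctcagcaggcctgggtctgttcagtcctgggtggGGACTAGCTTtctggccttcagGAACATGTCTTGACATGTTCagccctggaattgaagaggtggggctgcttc
Bax: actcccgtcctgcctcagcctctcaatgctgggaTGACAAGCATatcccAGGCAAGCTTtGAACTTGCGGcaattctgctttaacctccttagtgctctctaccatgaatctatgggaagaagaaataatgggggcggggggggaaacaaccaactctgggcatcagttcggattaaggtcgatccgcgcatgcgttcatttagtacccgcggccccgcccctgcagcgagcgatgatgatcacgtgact
Mdm2: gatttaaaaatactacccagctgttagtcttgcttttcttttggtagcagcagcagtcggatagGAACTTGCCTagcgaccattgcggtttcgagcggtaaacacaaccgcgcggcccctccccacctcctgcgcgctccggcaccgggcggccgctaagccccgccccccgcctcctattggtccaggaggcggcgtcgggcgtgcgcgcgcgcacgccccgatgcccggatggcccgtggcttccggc
Ccng1: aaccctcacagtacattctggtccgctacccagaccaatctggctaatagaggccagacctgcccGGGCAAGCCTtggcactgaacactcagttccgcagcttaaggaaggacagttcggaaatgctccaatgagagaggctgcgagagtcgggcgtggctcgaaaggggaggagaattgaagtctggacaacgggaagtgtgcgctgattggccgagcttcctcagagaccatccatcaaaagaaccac

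In the window of the first Cdkn1a start, 2 elements followed each other directly as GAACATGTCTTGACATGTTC, with 1 mismatch, 51 to 32 bases before the start. Another element without mismatch, GGACTAGCTT, lay 73 to 64 bases before it. With GAACATGTCT, after a spacer of 12 bases, GGACTAGCTT formed a full site with 0 mismatches, 73 to 42 bases before the start. In the Bax window both full arrangements carried 2 mismatches, and they shared the element AGGCAAGCTT. Mdm2 held GAACTTGCCT 186 to 177 bases before its start and Ccng1 held GGGCAAGCCT 185 to 176 bases before its start, each as a single element. The windows of the second Cdkn1a start and of Gdf15, Bbc3 and Phlda3 held no match within these letters. A match describes the sequence only, and the arrays did not measure binding.

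Across the members, the p53 targets called against DMSO were modestly higher, except Pmaip1, which was lower in 3 of the 4 comparisons. Called here means an adjusted p under 0.05 from limma, corrected over all 29236 genes. With WS1442 at 6 h, 4 of the 9 genes tested rose (Cdkn1a, Zmat3, Bbc3 and Trp53inp1), where 4.14% of all genes were called higher and 1.45% lower. With MeOH eluate at 6 h, 7 rose and Pmaip1 fell, where 8.7% of all genes were called higher and 8.39% lower. With WS1442 at 24 h, 6 rose and Pmaip1 fell, beside 12.9% and 11.9% of all genes. With MeOH eluate at 24 h, 8 rose and Pmaip1 fell, beside 9.64% and 8.6% of all genes. The median log2 fold change over the 9 genes was 0.27, 0.33, 0.36 and 0.52 in these 4 comparisons, against -0.01, 0.00, 0.05 and 0.01 over all genes. Scaling each array to its 75th percentile in place of quantile normalization changed the share of all calls that were higher from 74.1% to 85.0% with WS1442 at 6 h, from 52.0% to 40.2% with WS1442 at 24 h and from 52.8% to 42.8% with MeOH eluate at 24 h. No member that was called turned its direction under that scaling. The calls of Mdm2 with MeOH eluate at 6 h (0.41, adjusted p = 0.0632) and Bax with it at 24 h (0.14, adjusted p = 0.113) were lost. The treated cultures all lay above both DMSO cultures for 7, 7, 6 and 8 of the 9 genes in the 4 comparisons, where 20.1%, 25.6%, 27.8% and 22.1% of all genes did so, and all lay below for 1 gene in each, where 15.8%, 24.6%, 23.4% and 21.5% did so. More than 2-fold with an unadjusted p under 0.05, the limits stated by the study, was reached by 0, 0, 0 and 1 of the 9 genes, where 0.431%, 2.1%, 2.08% and 2.99% of all genes reached it.

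**Figure D1:**
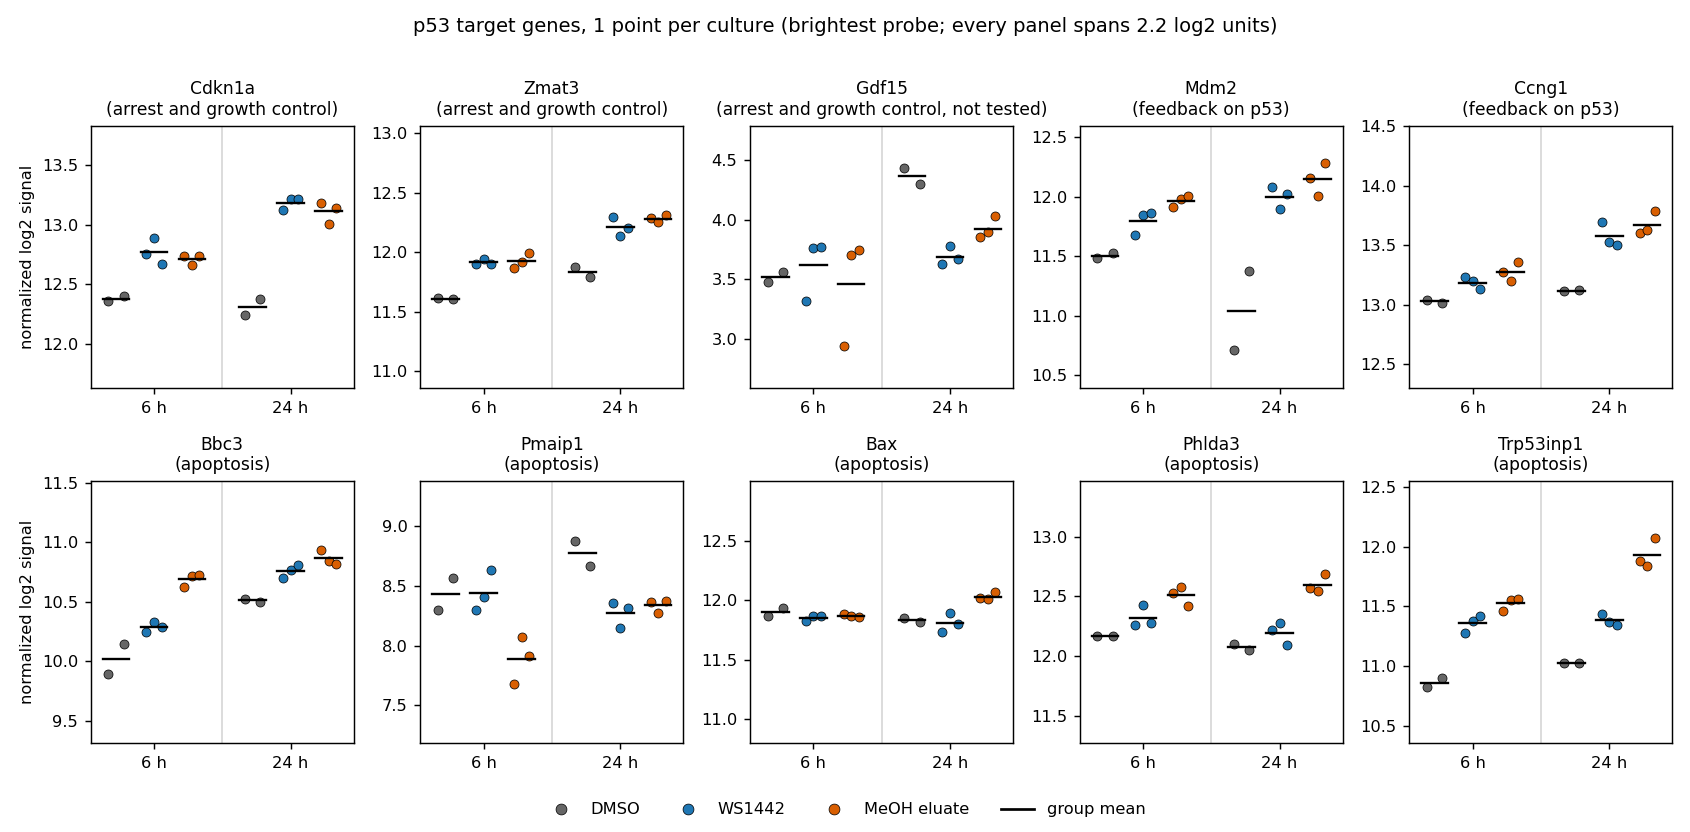
Normalized log2 signal of the 10 p53 targets at their brightest probe, 1 point per culture, for DMSO (2 cultures), WS1442 (3) and MeOH eluate (3) at 6 h and at 24 h, with a line at each group mean. Cdkn1a, Mdm2 and Ccng1 lie clearly above DMSO at 24 h, Trp53inp1 is highest with MeOH eluate, Pmaip1 is lower in all 6 treated cultures at 24 h, and Gdf15 lies near background.

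Cdkn1a encodes p21, an inhibitor of cyclin-dependent kinases that halts the cell cycle. Its normalized log2 signal at 6 h was 12.36 and 12.40 in the DMSO cultures, 12.75, 12.88 and 12.67 in the WS1442 cultures, and 12.73, 12.66 and 12.74 in the MeOH eluate cultures. At 24 h it was 12.24 and 12.38 in DMSO, 13.12, 13.22 and 13.22 in WS1442, and 13.18, 13.01 and 13.14 in MeOH eluate cultures. Every treated culture exceeded both DMSO cultures of its time point, and WS1442 and MeOH eluate cultures overlapped. The log2 fold change was 0.39 ± 0.07 (SE; adjusted p = 0.00502) with WS1442 and 0.33 ± 0.07 (adjusted p = 0.00361) with MeOH eluate at 6 h. At 24 h it was 0.88 ± 0.07 (1.84-fold; adjusted p = 2.24e-06) and 0.80 ± 0.07 (1.74-fold; adjusted p = 1.32e-06). The effect was larger at 24 h than at 6 h by 0.49 with WS1442 (adjusted p = 0.00541) and by 0.47 with MeOH eluate (adjusted p = 0.00585). The call with WS1442 at 6 h was lost without DMSO replicate 1 (0.37, adjusted p = 0.0765). On none of the arrays was the second Cdkn1a probe well above background, so it gave no fold change.

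Zmat3 encodes an RNA-binding zinc finger protein that acts as a tumour suppressor downstream of p53. At 6 h the log2 signal of Zmat3 was 11.61 and 11.61 in DMSO, 11.90, 11.94 and 11.90 in WS1442, and 11.86, 11.92 and 11.99 in MeOH eluate cultures. The 24 h values were 11.87 and 11.79 in DMSO, 12.30, 12.14 and 12.20 in WS1442, and 12.28, 12.25 and 12.31 in MeOH eluate cultures. All treated cultures were higher than both DMSO cultures, with little spread within groups. The log2 fold change was 0.30 (adjusted p = 0.00459) and 0.31 (adjusted p = 0.000853) at 6 h and 0.38 (adjusted p = 0.000146) and 0.45 (adjusted p = 2.52e-05) at 24 h for WS1442 and MeOH eluate. Neither treatment's effect on Zmat3 differed detectably between the times (0.07, 95% interval -0.08 to 0.23, with WS1442, and 0.14, -0.02 to 0.29, with MeOH eluate). Without DMSO replicate 1 the WS1442 call at 6 h was lost at an adjusted p of 0.0557, with a log2 fold change of 0.31.

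Gdf15 encodes a secreted stress hormone of the TGF-β family. Its probe, spotted 5 times per array, was well above background in all spots on only 2 of the 16 arrays, so Gdf15 did not enter the main test. Its log2 signal at 24 h was 4.44 and 4.30 in DMSO, 3.63, 3.78 and 3.67 in WS1442, and 3.85, 3.90 and 4.03 in MeOH eluate cultures. At 24 h all treated cultures were below both DMSO cultures. At 6 h the values were 3.48 and 3.56 in DMSO, 3.32, 3.76 and 3.77 in WS1442, and 2.94, 3.71 and 3.74 in MeOH eluate cultures, and the groups overlapped. In a fit without the filter on dim probes the difference at 24 h was -0.68 with WS1442 (adjusted p = 0.101) and -0.44 with MeOH eluate (adjusted p = 0.356), and neither passed.

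Mdm2 encodes the ubiquitin ligase that marks p53 for degradation. It had 2 probes above background. The brighter one was assigned to NM_010786, and the dimmer one to NM_001288586. The array design places the 50 bases of the dimmer probe at chr10:117139375-117142253 on mm9, a span of 2879 bases. Both are shown because their readings differed at 24 h, the brighter one by its first 30 bases.
Brighter probe: cttcagtcccgatttacaataaagtacctt
Dimmer probe: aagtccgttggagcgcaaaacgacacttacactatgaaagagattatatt

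At the brighter Mdm2 probe the log2 signal at 6 h was 11.49 and 11.52 in DMSO, 11.68, 11.84 and 11.87 in WS1442, and 11.92, 11.98 and 12.01 in MeOH eluate cultures. The same probe gave 10.71 and 11.37 in DMSO, 12.08, 11.90 and 12.02 in WS1442, and 12.15, 12.01 and 12.28 in MeOH eluate cultures at 24 h. Treated cultures were higher than both DMSO cultures at both times, but the 2 DMSO cultures at 24 h stood far apart. The log2 fold change at 6 h was 0.29 ± 0.14 with WS1442 (adjusted p = 0.25) and 0.46 ± 0.14 with MeOH eluate (adjusted p = 0.0298). The change at 24 h was 0.96 ± 0.14 with WS1442 (adjusted p = 0.00019) and 1.11 ± 0.14 with MeOH eluate (2.15-fold; adjusted p = 4.48e-05). The last value was the only one of the 9 genes in the 4 comparisons with DMSO to pass the study's limits, here with limma's p. The study considered genes regulated by both treatments, and with WS1442 Mdm2 stayed under 2-fold (1.94-fold). Without DMSO replicate 1 at 24 h the change with MeOH eluate was 0.77 (1.71-fold) and that with WS1442 0.63. Without DMSO replicate 2 the values were 1.44 and 1.29. The call with MeOH eluate at 6 h was lost when any one of the 5 cultures compared was left out, with values from 0.44 to 0.49 and adjusted p from 0.0501 to 0.174.

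At the dimmer Mdm2 probe the log2 signal at 6 h was 7.46 and 7.22 in DMSO, 7.62, 7.61 and 7.67 in WS1442, and 7.93, 7.97 and 7.86 in MeOH eluate cultures. The 24 h readings were 7.28 and 7.23 in DMSO, 7.57, 7.64 and 7.53 in WS1442, and 7.85, 7.76 and 8.07 in MeOH eluate cultures. Here the DMSO cultures at 24 h lay close together, and the 3 groups were in the same order without overlap at both times. In a fit of every probe on its own the log2 fold change at 24 h was 0.32 with WS1442 (adjusted p = 0.0249) and 0.64 with MeOH eluate (adjusted p = 0.000274). At 6 h it was 0.29 (adjusted p = 0.104) and 0.58 (adjusted p = 0.000951). MeOH eluate exceeded WS1442 at this probe by 0.29 at 6 h (adjusted p = 0.0419) and by 0.32 at 24 h (adjusted p = 0.0245). The difference of the effects between 24 h and 6 h was 0.67 with WS1442 at the brighter probe (adjusted p = 0.0346 in the gene fit) and 0.03 at the dimmer one (95% interval -0.26 to 0.32). Without DMSO replicate 1 at 24 h, the brighter probe gave 0.34 for that difference (adjusted p = 0.136). The rise of Mdm2 with both treatments at 24 h was thus read by both probes, and its growth from 6 h to 24 h by one.

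**Figure D2:**
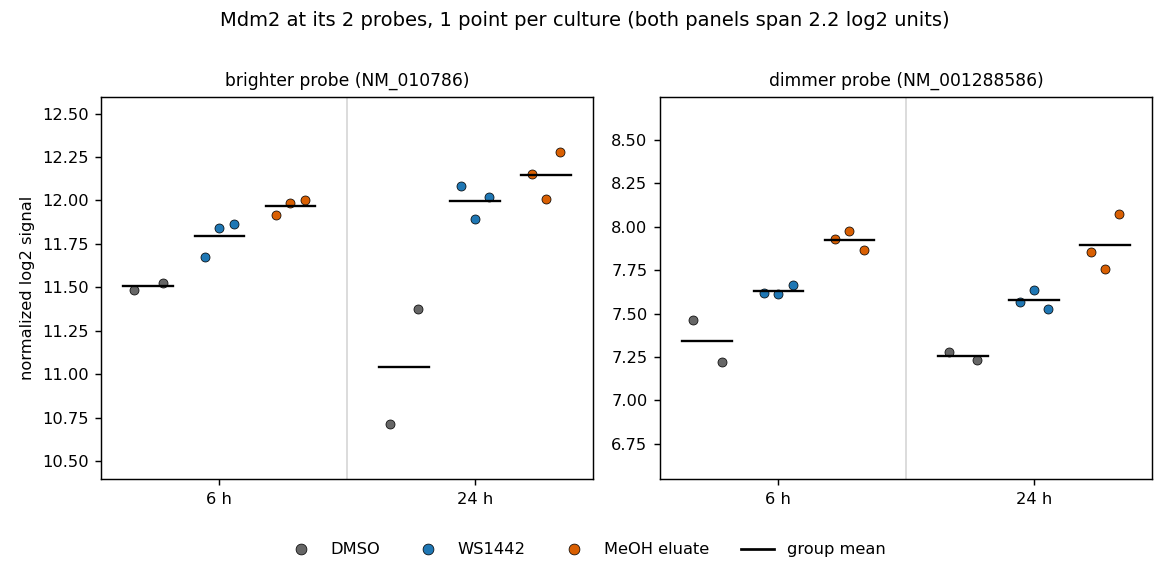
Normalized log2 signal of Mdm2 at the brighter probe (left) and the dimmer probe (right), 1 point per culture, with lines at the group means and the same span on both vertical axes. The DMSO cultures at 24 h are 10.71 and 11.37 at the brighter probe and 7.28 and 7.23 at the dimmer one.

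Ccng1 encodes cyclin G1, which recruits the phosphatase PP2A to Mdm2 and so takes part in the same feedback. Cultures at 6 h gave log2 signals of 13.04 and 13.02 in DMSO, 13.23, 13.20 and 13.13 in WS1442, and 13.28, 13.20 and 13.36 in MeOH eluate cultures. Cultures at 24 h gave 13.11 and 13.12 in DMSO, 13.69, 13.53 and 13.50 in WS1442, and 13.60, 13.63 and 13.79 in MeOH eluate cultures. Every treated culture lay above both DMSO cultures. The change of Ccng1 on the log2 scale was 0.16 (adjusted p = 0.186) with WS1442 and 0.25 (adjusted p = 0.0177) with MeOH eluate at 6 h. It was 0.46 (adjusted p = 0.0002) and 0.55 (adjusted p = 3.23e-05) at 24 h, past the threshold with both. The MeOH eluate call at 6 h was lost without DMSO replicate 1 (0.26, adjusted p = 0.0953), DMSO replicate 2 (0.24, adjusted p = 0.0921) or MeOH eluate replicate 3 (0.21, adjusted p = 0.0721).

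Trp53inp1 encodes a p53-induced nuclear protein that promotes apoptosis and autophagy. Log2 signals of Trp53inp1 at 6 h were 10.83 and 10.90 in DMSO, 11.28, 11.38 and 11.42 in WS1442, and 11.46, 11.55 and 11.56 in MeOH eluate cultures. They were 11.03 and 11.03 in DMSO, 11.44, 11.37 and 11.34 in WS1442, and 11.88, 11.84 and 12.08 in MeOH eluate cultures at 24 h. The 3 groups followed the order DMSO, WS1442, MeOH eluate at both times without overlap. Trp53inp1 was higher by 0.50 on the log2 scale (adjusted p = 0.00103) with WS1442 and 0.66 (adjusted p = 1.08e-05) with MeOH eluate at 6 h. The rise at 24 h was 0.36 (adjusted p = 0.00137) with WS1442 and 0.91 (1.88-fold; adjusted p = 4.17e-07) with MeOH eluate. These 4 calls held when any one array was left out.

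Phlda3 encodes a PH domain protein that competes with the kinase Akt for membrane lipids and so weakens survival signals. Its log2 signal at 6 h was 12.17 and 12.17 in DMSO, 12.26, 12.43 and 12.28 in WS1442, and 12.53, 12.58 and 12.42 in MeOH eluate cultures. The levels at 24 h were 12.10 and 12.05 in DMSO, 12.22, 12.28 and 12.09 in WS1442, and 12.57, 12.55 and 12.69 in MeOH eluate cultures. MeOH eluate cultures were above DMSO at both times, whereas 1 WS1442 culture at 24 h fell within the DMSO range. The log2 fold change with MeOH eluate was 0.34 (adjusted p = 0.00309) at 6 h and 0.52 (adjusted p = 6.44e-05) at 24 h. With WS1442 it was 0.15 (adjusted p = 0.231) and 0.12 (adjusted p = 0.216).

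Bbc3 encodes Puma, a BH3-only protein that neutralises the anti-apoptotic members of the Bcl2 family. Bbc3 had log2 signals at 6 h of 9.89 and 10.15 in DMSO, 10.24, 10.33 and 10.29 in WS1442, and 10.63, 10.72 and 10.72 in MeOH eluate cultures. At the later time Bbc3 had 10.53 and 10.50 in DMSO, 10.70, 10.77 and 10.81 in WS1442, and 10.93, 10.85 and 10.82 in MeOH eluate cultures. All treated cultures exceeded DMSO, and at 6 h MeOH eluate cultures also exceeded all WS1442 cultures. MeOH eluate gave a Bbc3 increase of 0.67 on the log2 scale (adjusted p = 1.33e-05) at 6 h and 0.35 (adjusted p = 0.00187) at 24 h. With WS1442 it was 0.27 (adjusted p = 0.0356) at 6 h and 0.25 (adjusted p = 0.0159) at 24 h. The WS1442 call at 6 h was lost without DMSO replicate 1 (0.14, adjusted p = 0.528), WS1442 replicate 2 (0.24, adjusted p = 0.0897) or replicate 3 (0.27, adjusted p = 0.0963). The one at 24 h was lost without either DMSO culture or WS1442 replicate 3, with values from 0.22 to 0.26 and adjusted p from 0.0595 to 0.0739.

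Pmaip1 encodes Noxa, another BH3-only protein, which acts on Mcl1. Its log2 signal at 6 h was 8.30 and 8.57 in DMSO, 8.30, 8.41 and 8.63 in WS1442, and 7.68, 8.07 and 7.91 in MeOH eluate cultures. Pmaip1 at 24 h was at 8.88 and 8.67 in DMSO, 8.35, 8.15 and 8.31 in WS1442, and 8.37, 8.27 and 8.37 in MeOH eluate cultures. Noxa mRNA was thus below both DMSO cultures with MeOH eluate at 6 h and with both treatments at 24 h, opposite to the other members called. Its change was 0.01 on the log2 scale (adjusted p = 0.979) with WS1442 and -0.55 (adjusted p = 0.00837) with MeOH eluate at 6 h. The 24 h changes were -0.50 (adjusted p = 0.00915) and -0.44 (adjusted p = 0.0250). The call with MeOH eluate at 6 h was lost without DMSO replicate 2 (-0.41, adjusted p = 0.106). At 24 h the calls were lost without DMSO replicate 1 (-0.40, adjusted p = 0.121, with WS1442 and -0.33, adjusted p = 0.237, with MeOH eluate), and the latter also without MeOH eluate replicate 2 (-0.40, adjusted p = 0.0696) or replicate 3 (-0.46, adjusted p = 0.051).

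Bax encodes the effector that permeabilises the outer mitochondrial membrane. Its log2 signal at 6 h lay between 11.83 and 11.93 in all 8 cultures. By 24 h it was 11.85 and 11.82 in DMSO, 11.73, 11.90 and 11.80 in WS1442, and 12.02, 12.01 and 12.07 in MeOH eluate cultures. Bax was higher in the MeOH eluate cultures at 24 h, whereas WS1442 and DMSO cultures of that time overlapped. Under 75th percentile scaling the call with MeOH eluate at 24 h was lost (0.14, adjusted p = 0.113). With quantile normalization the log2 fold change there was 0.20 (adjusted p = 0.00851), and without DMSO replicate 2 it was 0.18 and the call was lost. In the other 3 comparisons with DMSO it was -0.05 (95% interval -0.15 to 0.05) and -0.03 (-0.13 to 0.07) at 6 h and -0.03 (-0.13 to 0.07) with WS1442 at 24 h.

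**Figure D3:**
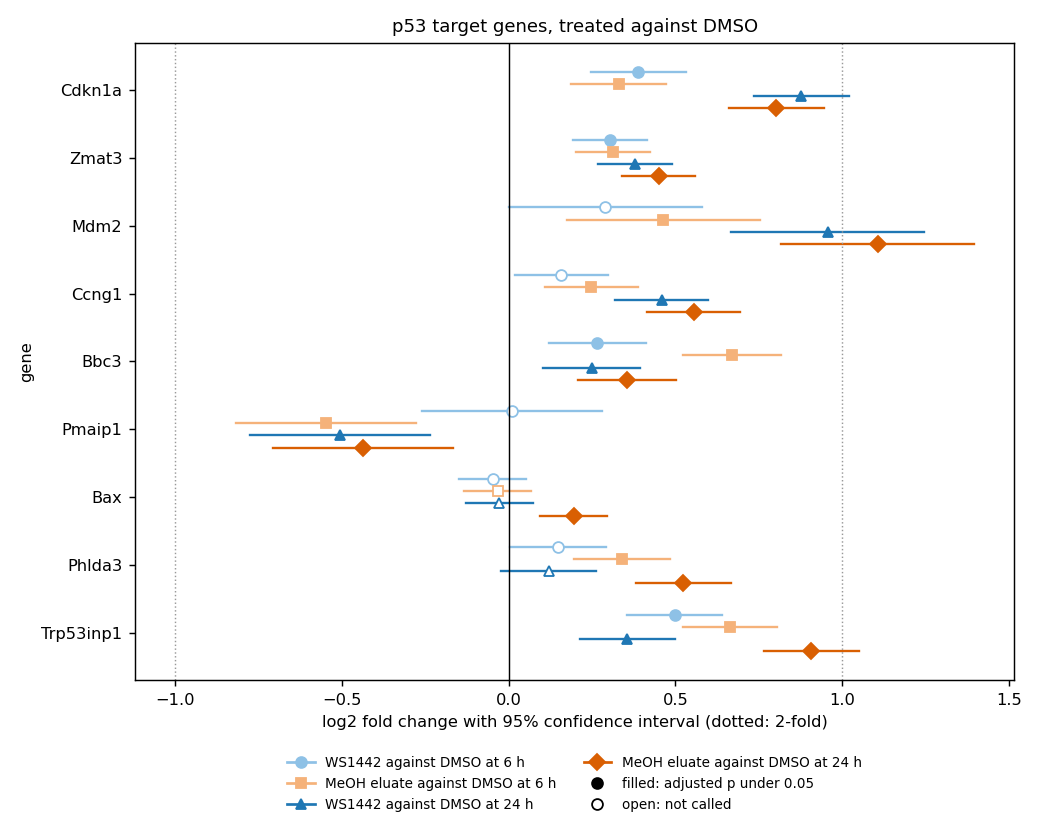
Log2 fold change against DMSO with its 95% confidence interval for the 9 genes tested, with WS1442 and MeOH eluate at 6 h (pale) and 24 h (dark). Filled points passed an adjusted p of 0.05; Mdm2 with MeOH eluate at 24 h lies at 1.11, Pmaip1 lies below 0 in the last 3 comparisons, and Bax leaves 0 only with MeOH eluate at 24 h.

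The subfraction and the whole extract were given at different concentrations (0.1 and 0.25 mg/ml), so their direct comparison sets the 2 conditions used side by side and not equal doses. At 6 h Bbc3 was higher by 0.40 in MeOH eluate cultures (adjusted p = 0.00114) and Pmaip1 differed by -0.56 (adjusted p = 0.00736), where 4.81% of all genes were called higher and 7.34% lower. Under 75th percentile scaling the share of all calls that were higher in this comparison was 20.6% in place of 39.6%, and Cdkn1a was then also called, at -0.19. At 24 h Trp53inp1 was higher by 0.55 (adjusted p = 8.5e-05), Phlda3 by 0.40 (adjusted p = 0.000656) and Bax by 0.22 (adjusted p = 0.00291) in MeOH eluate cultures, where 7.45% of all genes were called higher and 7.18% lower. The 2 tested genes of arrest and growth control did not differ detectably at 24 h: the difference was -0.08 for Cdkn1a (95% interval -0.20 to 0.05) and 0.07 for Zmat3 (-0.03 to 0.17). For the feedback genes it was 0.10 for Ccng1 (-0.03 to 0.22) and, for Mdm2, 0.15 at the brighter probe (-0.11 to 0.41) and 0.32 at the dimmer one, where it passed (adjusted p = 0.0245; 0.29 with adjusted p = 0.0419 at 6 h). MeOH eluate cultures lay above all WS1442 cultures for 3 of the 9 genes at 6 h (13.2% of all genes) and for 4 at 24 h (16.9% of all genes), and below them for Pmaip1 at 6 h (17.6% of all genes) and for no member at 24 h (19.1% of all genes). Whether the roles themselves differed was not tested.

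**Figure D4:**
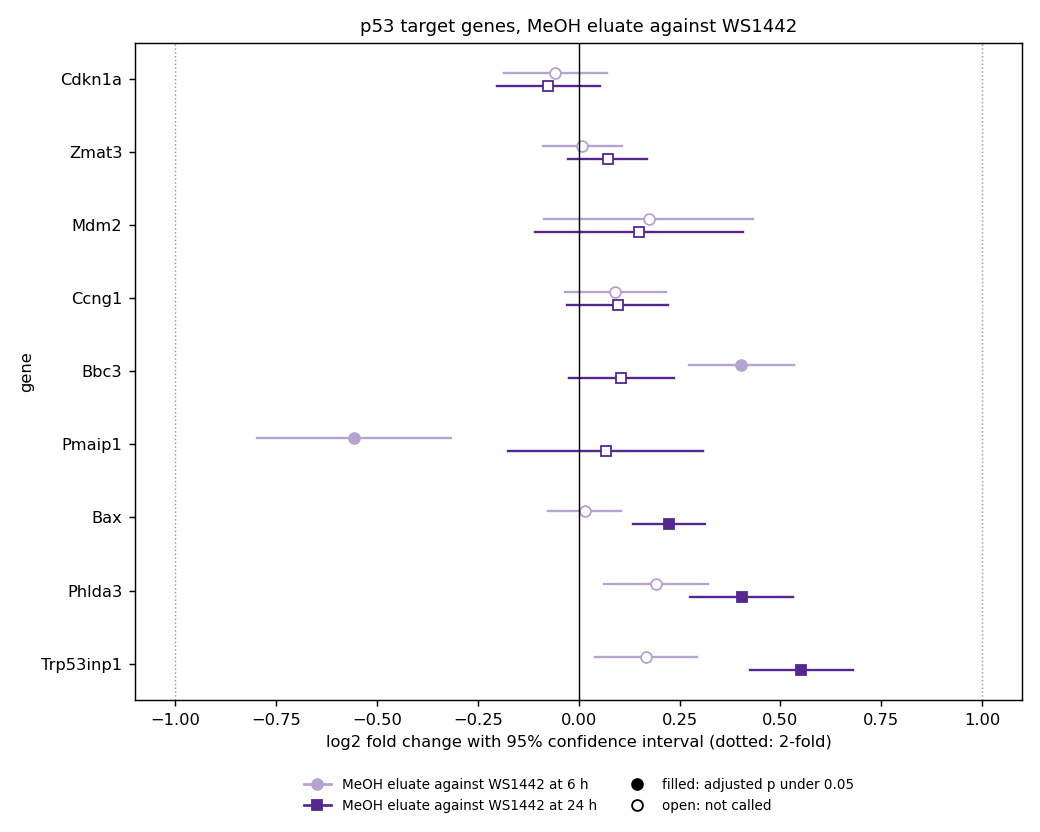
Log2 fold change of MeOH eluate (0.1 mg/ml) against WS1442 (0.25 mg/ml) with its 95% confidence interval for the 9 genes tested, at 6 h (pale) and 24 h (dark), with filled points where the adjusted p was under 0.05. Bbc3 and Pmaip1 depart from 0 in opposite directions at 6 h, and Trp53inp1, Phlda3 and Bax lie above 0 at 24 h.

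The effects at 24 h and at 6 h were also compared with each other. With WS1442, 3 of the 9 genes had a larger effect at 24 h (Cdkn1a by 0.49, Mdm2 by 0.67 and Ccng1 by 0.30 on the log2 scale), where 5.75% of all genes had a larger and 6.98% a smaller effect. With MeOH eluate, 2 had a larger effect at 24 h (Cdkn1a by 0.47 and Bax by 0.23), where 3.93% of all genes had a larger and 3.87% a smaller effect. Mdm2 and Ccng1 had differences of similar size with MeOH eluate (0.64, adjusted p = 0.0551, and 0.31, adjusted p = 0.0585), which did not pass. Pmaip1 with WS1442 (-0.52, adjusted p = 0.0714) and Bbc3 with MeOH eluate (-0.31, adjusted p = 0.0636) had smaller values at 24 h that did not pass. With WS1442, 75th percentile scaling gave 28.1% in place of 45.2% as the share of all such calls that were higher, and left Ccng1 at 0.07 and Mdm2 at 0.51, neither of them called, while Pmaip1 was called at -0.58.

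Of 38 other p53 targets listed, also chosen with earlier results of these data known, 37 could be tested. With WS1442 10 rose and 3 fell at 6 h (4.14% and 1.45% of all genes), and 17 rose and 3 fell at 24 h (12.9% and 11.9% of all genes). With MeOH eluate 11 rose and 5 fell at 6 h (8.7% and 8.39% of all genes), and 22 rose and 3 fell at 24 h (9.64% and 8.6% of all genes). These counts went with median log2 fold changes of 0.17 and 0.23 for WS1442 and 0.06 and 0.32 for MeOH eluate. The largest rises at 6 h, among genes called whose treated and DMSO cultures did not overlap, were those of Tnfrsf10b, a death receptor (0.70 and 0.71 with WS1442 and MeOH eluate, with DMSO cultures as far apart as 9.63 and 10.54), and Btg2, an antiproliferative cofactor (0.51 and 0.62). Btg2 was also higher at 24 h, by 0.78 with either treatment, as was Dcxr, a carbonyl reductase, by 0.73 and 0.68. Plk2, a polo-like kinase, rose with MeOH eluate by 0.56 at 6 h and 0.78 at 24 h.

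Some of these other targets changed sign between the times. Sfn, which encodes 14-3-3σ, a brake on entry into mitosis, was lower at 6 h (-0.39 with WS1442 and -0.39 with MeOH eluate) and higher at 24 h (0.47 and 1.02), and the difference between times passed its own test (0.86, adjusted p = 0.000464, and 1.40, adjusted p = 1.64e-06). Epha2, an ephrin receptor, was at -0.36 and -0.70 at 6 h and rose by 0.55 and 0.49 at 24 h (difference between times 0.91, adjusted p = 0.000945, and 1.19, adjusted p = 3.33e-05). Ephx1, a microsomal epoxide hydrolase, was at 0.08 with WS1442 and lower with MeOH eluate at 6 h (-0.52) and was higher at 24 h (0.55 with WS1442 and 0.70 with MeOH eluate). Trp53i13 went the other way, up at 6 h (0.26 and 0.59) and down at 24 h (-0.42 and -0.42), with differences of -0.68 (adjusted p = 0.000121) and -1.02 (adjusted p = 8.56e-07). Ier5 was likewise called higher at 6 h and lower at 24 h with both treatments. Of the 9 canonical targets tested, 0 were called in opposite directions at 6 h and 24 h with the same treatment. The share of all genes called in opposite directions was not determined, so this count sets no contrast with the other targets.

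Trp53 itself had a log2 signal of 11.36 to 11.45 in DMSO, 11.04 to 11.54 in WS1442 and 11.60 to 11.69 in MeOH eluate cultures at 6 h. At 24 h it had 11.14 to 11.16, 11.35 to 11.52 and 11.21 to 11.34. Against DMSO it was called with WS1442 at 24 h (0.30, adjusted p = 0.0447), and its values were -0.10 and 0.23 at 6 h and 0.12 with MeOH eluate at 24 h. Trp53 was also higher with MeOH eluate than with WS1442 at 6 h (0.33, adjusted p = 0.0314). Mdm4, the relative of Mdm2 that represses p53 activity, was not called (0.12, 0.03, -0.20 and -0.11). Of the 19 genes tested on the list of p53 and its regulators, limma called 0 with WS1442 at 6 h. There 3 had an unadjusted p under 0.05, Student's t-test gave 1, and 4.14% of all genes were called higher and 1.45% lower. With MeOH eluate at 6 h 0 rose and 1 fell (8.7% and 8.39% of all genes). With WS1442 at 24 h 3 rose and 4 fell (12.9% and 11.9% of all genes). With MeOH eluate at 24 h 1 rose and 3 fell (9.64% and 8.6% of all genes). Cdkn2a, which encodes p19Arf, an inhibitor of Mdm2, fell with MeOH eluate at 6 h (-0.45) and with WS1442 at 24 h (-0.52). At 24 h Ppm1d, the phosphatase Wip1 that switches the p53 response off and is itself a p53 target, was lower with both treatments (-0.59 and -0.47), as was Trp53bp1 (-0.36 and -0.29). The kinase gene Hipk2 was lower with WS1442 (-0.69), Atr was lower with MeOH eluate (-0.34), and Cop1, a ubiquitin ligase for p53, was higher with MeOH eluate (0.32).

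Among 20 cell cycle genes that are lowered through p21 and the DREAM complex, limma called 0 with WS1442 at 6 h. There 4 had an unadjusted p under 0.05, Student's t-test gave 3, and 4.14% of all genes were called higher and 1.45% lower. With MeOH eluate at 6 h 6 fell, where 8.39% of all genes did, among them Plk1 (-0.37), Cdk1 (-0.25), Kif23 (-0.23) and Ccnb1 (-0.17). With WS1442 at 24 h 7 fell and 4 rose, with Mcm5 at -0.27 and with Cdc20 (0.42), Ccnb2 (0.35) and Top2a (0.30) higher, where 11.9% of all genes fell and 12.9% rose. With MeOH eluate at 24 h 4 fell and Mybl2 rose (0.23), where 8.6% of all genes fell and 9.64% rose, and those that fell included Bub1b (-0.30) and Ccna2 (-0.28). The median log2 fold change was 0.02 and -0.09 with WS1442 and -0.11 and -0.12 with MeOH eluate at 6 h and 24 h.

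Pmaip1, Bbc3 and Gdf15 can also be raised by the stress factors ATF4 and CHOP, so the 18 genes of a list of ATF4 and CHOP targets were set beside them (1 of them, Sesn2, is also among the other p53 targets). At 24 h 12 of these fell and 2 rose with each treatment. Of all genes 11.9% fell and 12.9% rose with WS1442, and 8.6% fell and 9.64% rose with MeOH eluate. The median log2 fold change over the list at 24 h was -0.46 with WS1442 and -0.62 with MeOH eluate. With MeOH eluate at 24 h the largest changes were those of Trib3, a pseudokinase (-1.97), Chac1, which degrades glutathione (-1.93), Mthfd2, a mitochondrial folate enzyme (2.83-fold lower), and Vldlr, a lipoprotein receptor (-1.46). With WS1442 they were those of Trib3 (-1.11), Shmt2, which supplies the same folate pathway (-0.94), Mthfd2 (-0.89) and Nupr1, a stress-induced chromatin protein (-0.83). Chac1 was already lower at 6 h, at -0.49 with WS1442 and -1.47 with MeOH eluate. The leading genes that went up were Cebpb (0.49 and 1.06 at 6 h) and Ddit4 (0.51 and 0.75 at 6 h). Ddit3, which encodes CHOP, was at 0.18 and 0.47 at 6 h and at 0.22 and 0.13 at 24 h, of which the 0.47 was called (adjusted p = 0.0435). At 6 h 2 of the 18 rose and 3 fell with WS1442 (4.14% and 1.45% of all genes). With MeOH eluate at 6 h 3 rose and 7 fell (8.7% and 8.39% of all genes). The 6 h medians were -0.001 and 0.02. Pmaip1 was lower with both treatments at 24 h and with MeOH eluate at 6 h, whereas Bbc3 was higher in all 4 comparisons. The part of these factors in their levels was not tested.

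**Figure D5:**
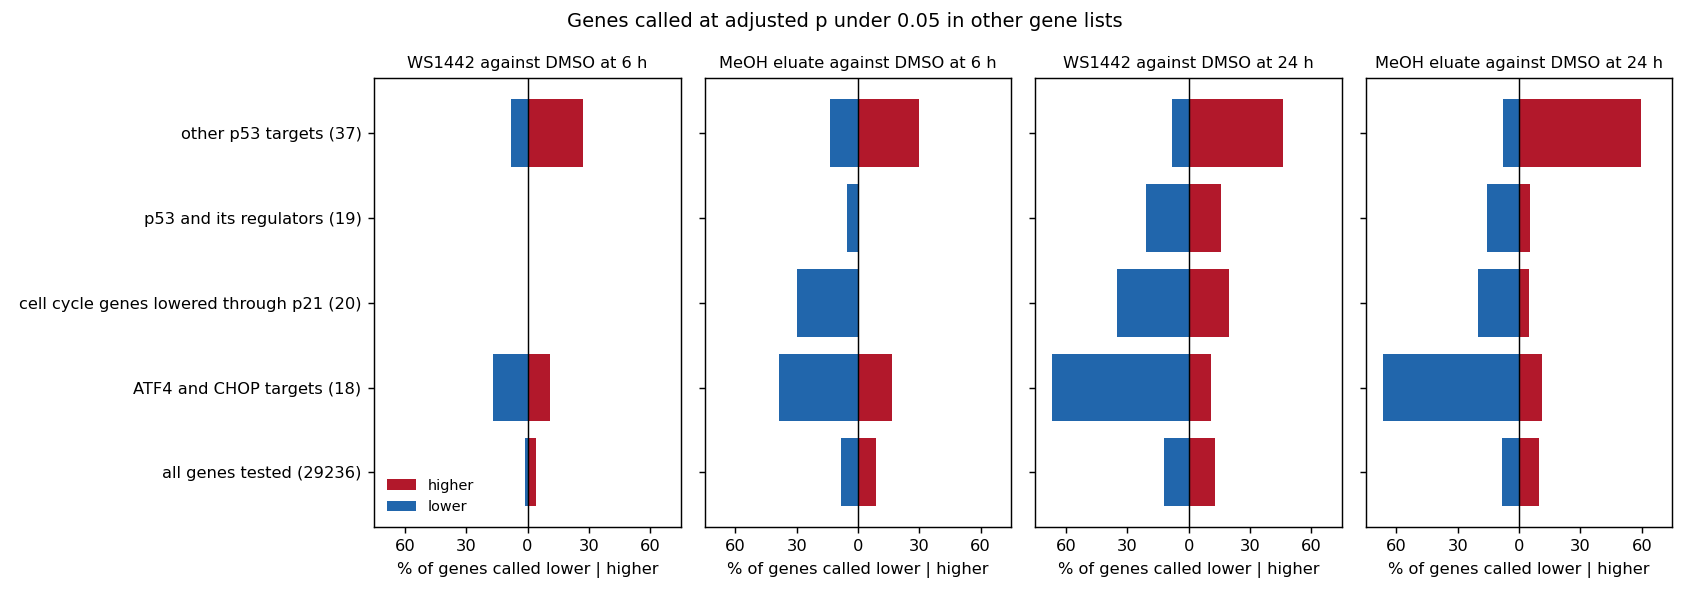
Percentage of genes called lower (blue, left of 0) and higher (red, right of 0) at an adjusted p under 0.05 in 4 further gene lists and among all genes tested, with the number of genes in brackets, for the 4 comparisons with DMSO. Among other p53 targets at 24 h, 17 and 22 of 37 were higher, and among ATF4 and CHOP targets 12 of 18 were lower.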

How the data were processed

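RNA of 16 cultures was hybridised by the service laboratory to one-colour Agilent arrays. The deposited scanner files give each spot's processed intensity, already background-subtracted, with mean and background intensity and flags. The authors' value table holds quantile normalized intensity, which was used as an alternative after log2 transformation. Here log2 of the processed intensity was used without outlier spots (20 to 49 per array), spots of a probe were averaged and the arrays were quantile normalized, as in the study's methods. Control spots were left out. A gene was tested at its brightest probe among those that all arrays of some group measured well above background (29236 genes). Group means were fitted with limma 3.58.1 in R 4.3.3 (6 groups, trended eBayes), with Benjamini-Hochberg adjustment over all genes, in 8 comparisons. The fit was tested on simulated data. Figures were drawn with matplotlib in Python.

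Probes were named by symbol or transcript accession through RefSeq (GRCm38.p6). The members and gene lists were chosen with earlier results of these data known. Of the other lists, the text names up to 4 genes per comparison. They had the largest change among those called whose groups did not overlap and whose higher group was well above background. Trp53 and Mdm4 were also named, and Ddit3 and Ier5 were named after their results were seen. The labels do not say that cultures came from separate differentiations, so p-values measure the spread between these cultures, and the number of arrays limits the precision. The alternatives were 12 other settings and leaving out each of the 16 arrays. The study's own comparison limits were more than 2-fold and p under 0.05, for genes regulated by both treatments.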

Additional observations from a re-analysis of the deposited data

Results flagged for a closer look

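For 5 effects on p53 targets the change against DMSO at 24 h differed from that at 6 h in a test of the difference itself. Cdkn1a gained 0.49 on the log2 scale with WS1442 (from 0.39 at 6 h to 0.88 at 24 h, adjusted p = 0.00541) and 0.47 with MeOH eluate (from 0.33 to 0.80, adjusted p = 0.00585), and both differences stayed past the threshold without any one array. Mdm2 gained 0.67 with WS1442 at its brighter probe (from 0.29 to 0.96, adjusted p = 0.0346), against 0.03 at its dimmer probe. Ccng1 gained 0.30 with WS1442 (from 0.16 to 0.46, adjusted p = 0.0458) and was at 0.07 under 75th percentile scaling. Bax gained 0.23 with MeOH eluate (from -0.03 to 0.20, adjusted p = 0.0491). The Mdm2 difference was lost in 6 of the 16 fits without 1 array, the Ccng1 difference in 10 and the Bax difference in 14. Slide and time point cannot be told apart, but each effect was taken within its own slide. The groups of 2 and 3 cultures were too small for a test of single outlying cultures.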

How the results depend on the processing

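Over the 9 genes and 8 comparisons, 1086 of 1152 values kept their direction and their side of the threshold when 1 array was left out, and 755 of 828 did so under the other settings; none of those that were called turned its direction. The number of members called ranged from 1 to 5 with WS1442 at 6 h, 5 to 8 with MeOH eluate at 6 h, 5 to 7 with WS1442 at 24 h, 8 to 9 with MeOH eluate at 24 h, 2 to 4 for MeOH eluate against WS1442 at 6 h, 3 to 3 for it at 24 h, and 1 to 3 for either difference between times when 1 array was left out. The lowest count with WS1442 at 6 h came without DMSO replicate 1, where Trp53inp1 was the gene kept. That with MeOH eluate at 6 h came without DMSO replicate 2. Each of these fits left 1 DMSO culture at 6 h, and fewer of all genes were called in them as well. By Student's t-test with Benjamini-Hochberg adjustment, 0 members were called in each of the 6 comparisons within a time point. Few genes passed it at all: it called 1, 8, 103, 326, 70 and 210 of all 29236 genes. Without adjustment it gave 5, 7, 7, 9, 3 and 3 of 9 at a p under 0.05. There 13.3%, 24.6%, 27.5%, 23.2%, 20.1% and 26.4% of all genes passed. Of these member results 1 (Mdm2 with MeOH eluate at 24 h) also exceeded 2-fold. That test uses only the 5 or 6 arrays compared. The count for the MeOH eluate difference between times (2) was 1 with 75th percentile scaling, the mean of probes, every probe on its own, no signal trend or the replicate block, and 4 with normexp background correction or the stricter filter. The count for the WS1442 difference (3) was 1 without the filter, with the mean of probes, with no signal trend or with the replicate block. Deviations of same-numbered cultures correlated at -0.23 to 0.31 (median -0.06, 14 pairs). Those of the other pairs correlated at -0.21 to 0.25 (median 0.02, 28 pairs). The 2 DMSO cultures of a time point deviate by equal and opposite amounts, so the pairs are not independent. A pairing of cultures by replicate number could therefore not be excluded. The replicate block gave 3 calls with WS1442 and 6 with MeOH eluate at 6 h. It called 1.42% of all genes higher and 0.479% lower with WS1442 there, and 5.94% higher and 5.72% lower with MeOH eluate. It changed no other count of members called within a time point. The cause of these changes was not tested. Gdf15 and the second Cdkn1a probe lay too near background for a firm value.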
